A study of Mus musculus with 12 samples.

Results

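The 31 genes described here carry glucose through glycolysis to lactate, or belong to the genes that low oxygen switches on. They were chosen by name from the 32285 gene rows of the count tables and followed step by step, and all 31 had a row. Aldoa had 2 rows, and the one with more UMIs was used. The 31 are 2 glucose transporters, 2 hexokinases, 9 genes of upper glycolysis, 6 of lower glycolysis, 4 of lactate formation and transport, 2 kinases of pyruvate dehydrogenase and 6 hypoxia targets outside glycolysis.

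Livers of 12 C57BL/6J pups at postnatal day 11, given as 6 naive control and 6 anemic mice, were dissociated into single cells, and the mRNA of each cell was counted in droplets, in 1 library for each mouse. Anemia was induced by repeated phlebotomy from the facial vein, with 20 µL of blood per gram of body weight drawn on alternate days from day 2 to day 10, whereas controls received a daily needle stick without blood loss. Both groups carry the same genotype label, and pups of each litter were assigned to the groups at random. Sources differ on the version of the droplet kit, and all 12 libraries carry the same batch label.

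Glycolysis splits glucose into pyruvate without oxygen. When oxygen is short, pyruvate is turned into lactate, which renews the cofactor that the pathway consumes. Kinases of pyruvate dehydrogenase then keep pyruvate from entering the mitochondrial cycle. Low oxygen stabilizes the hypoxia-inducible factors (HIF), which bind short DNA elements near many of these genes. In the adult liver, hepatocytes use their own isoenzymes at several steps and can run the pathway backwards to make glucose.

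The filters kept 206146 cells, 14184 to 21186 per mouse, in libraries of 46252146 to 74545930 UMIs (unique molecular identifiers, each counting 1 captured mRNA). Pairs of libraries shared 51 to 121 cell barcodes, at most 0.694% of the smaller library. Clusters made without the 31 genes were named from marker genes into 14 classes, called -like since the names rest on markers alone. Alb marked the hepatocyte-like (15488 to 38679 CPM, UMIs scaled to a total of 1e6 per mouse and class), Stab2 the endothelial-like (2122 to 4026) and Alas2, the first enzyme of heme synthesis in red cells, the erythroid-like cells (1536 to 2984), while the NK-like class also carried the T cell gene Cd3e (223 to 592). The mouse labelled anemia 2 stood apart: it gave 81.4% of the cells of a monocyte-like cluster led by Saa3 and Nos2, and 4435 of all 9886 monocyte-like cells. Per class and mouse, UMIs were summed and compared between 6 and 6 mice by the quasi-likelihood test of edgeR, and a gene is called at a Benjamini-Hochberg adjusted p under 0.05 over all genes tested in that class. Unless stated otherwise, levels are normalised CPM (TMM scaling over the tested genes), given as mean ± SD with n = 6 per group, and log2 fold changes are anemic against control with their SE. This SE is the absolute log2 fold change divided by the square root of the F statistic of the edgeR test. In sums per class, a change in the mix of cells within a class and a change per cell cannot be told apart.

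In control livers the members were spread unevenly over the classes, and levels across classes are given here in CPM of all UMIs. Over the 12 larger classes, erythroid-like cells, filled with globin mRNA, had the lowest level of 18 of the 31 members. Endothelial-like and neutrophil-like cells each had the highest level of 7. Hepatocyte-like cells led in 5 members and were lowest in another 5. Ldha, the enzyme that makes lactate, reached 1192 ± 115 CPM in hepatocyte-like and 551 ± 65.6 CPM in endothelial-like cells, the next of these 12 classes. The carrier Slc16a1, which moves lactate in either direction, was likewise highest in hepatocyte-like cells (100.2 ± 12), close to pre-B-like cells (92.6 ± 9.24). Ak4, a mitochondrial nucleotide kinase, was at 49.4 ± 9.33 CPM in hepatocyte-like cells and at 5.77 ± 2.08 CPM in stellate-like cells. By contrast, the lactate exporter Slc16a3 was at 3.51 ± 1.44 CPM in hepatocyte-like cells and 237 ± 32.8 CPM in neutrophil-like cells. The neutrophil-like cells also had the highest level of the high-affinity glucose transporter Slc2a3 (267 ± 26.8), which was at 1.91 ± 0.882 in hepatocyte-like cells. Hexokinase 2 (Hk2) stood out in macrophage-like cells with 274 ± 27.3 CPM, against 92.3 ± 19 CPM in monocyte-like cells. Pkm, the pyruvate kinase of most tissues, was 48.7 ± 6.22 CPM in hepatocyte-like and 681 ± 103 CPM in neutrophil-like cells.

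**Figure D1:**
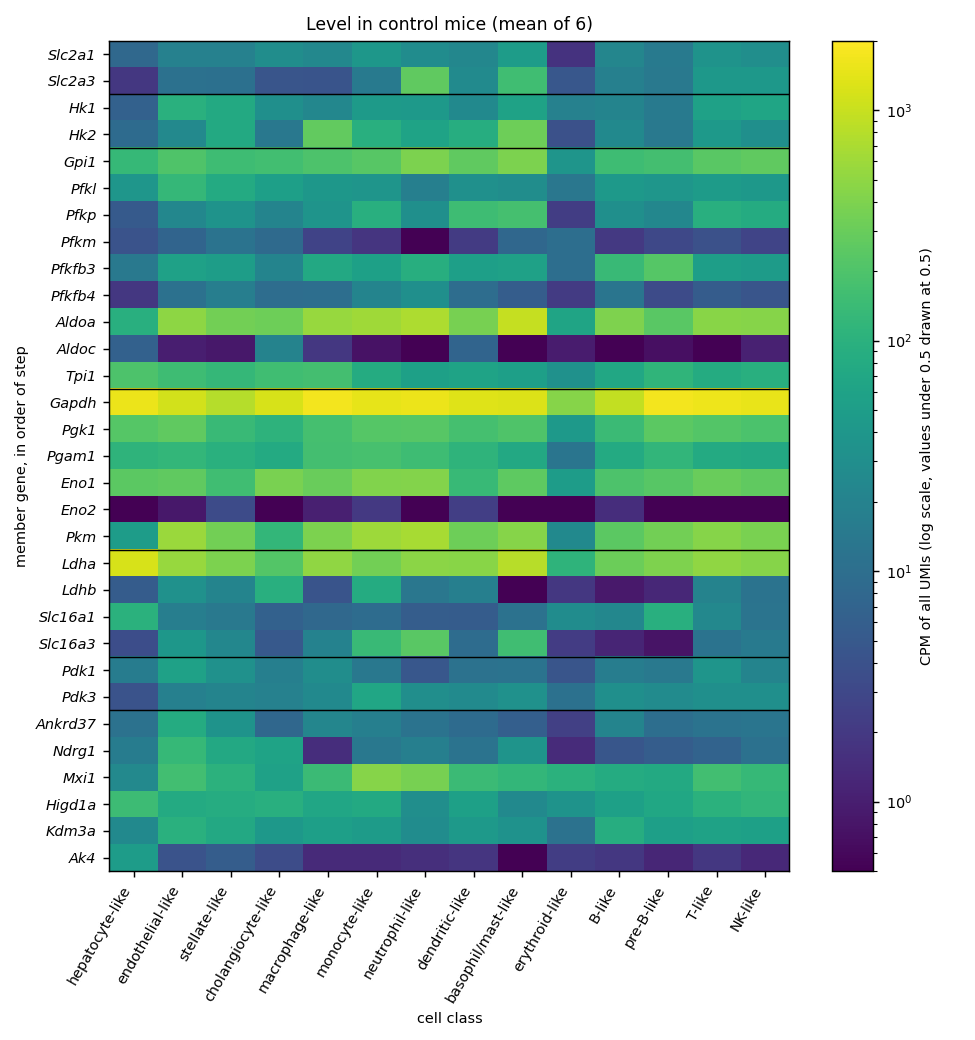
Mean level of each member gene (rows, ordered by step, with lines between steps) in the 6 control mice for 14 cell classes (columns), as CPM of all UMIs on a log colour scale. Gapdh, Aldoa and Ldha are bright in nearly every class, Eno2 and Aldoc are near the floor in most, and the erythroid-like column is the darkest for 18 of 31 members among the 12 larger classes.

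The bases ahead of the members' start sites were read for the core of the element that HIF binds. In the 250 bases before a RefSeq start (GRCm38.p6, 1 start per gene, the one nearest to the GENCODE M21 gene start), the motifs ACGTG and GCGTG were searched on both strands, where the palindrome CACGTG counts as an overlapping pair. A match was present in 22 of 29 members with a window (75.9%) and in 42.1% of 20595 windows of all genes, and at least 2 matches in 14 members (48.3%) and 19.0% of all genes. Slc2a3 and Ndrg1 had no window. The following 7 windows belong to the members whose responses are described in most detail, written 5′ to 3′ along the gene's strand with each match in capitals. Slc2a1, Pgk1, Slc16a3 and Ak4 hold 2 matches each and Ankrd37 holds 4, while Gpi1 and Aldoa, which rose as well, have none in this window.
Slc2a1: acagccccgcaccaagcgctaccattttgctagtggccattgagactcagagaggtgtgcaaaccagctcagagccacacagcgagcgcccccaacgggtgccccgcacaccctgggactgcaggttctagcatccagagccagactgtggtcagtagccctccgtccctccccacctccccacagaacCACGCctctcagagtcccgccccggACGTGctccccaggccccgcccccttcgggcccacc
Pgk1: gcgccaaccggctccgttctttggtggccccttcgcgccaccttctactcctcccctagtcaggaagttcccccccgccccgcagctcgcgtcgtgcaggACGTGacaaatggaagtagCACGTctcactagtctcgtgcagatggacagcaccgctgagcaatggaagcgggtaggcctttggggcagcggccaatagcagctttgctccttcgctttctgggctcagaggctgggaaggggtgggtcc
Slc16a3: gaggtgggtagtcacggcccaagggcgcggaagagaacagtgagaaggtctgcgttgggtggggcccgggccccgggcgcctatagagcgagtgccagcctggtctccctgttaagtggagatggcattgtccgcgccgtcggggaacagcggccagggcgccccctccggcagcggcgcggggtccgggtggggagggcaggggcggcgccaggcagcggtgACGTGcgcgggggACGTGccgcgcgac
Ankrd37: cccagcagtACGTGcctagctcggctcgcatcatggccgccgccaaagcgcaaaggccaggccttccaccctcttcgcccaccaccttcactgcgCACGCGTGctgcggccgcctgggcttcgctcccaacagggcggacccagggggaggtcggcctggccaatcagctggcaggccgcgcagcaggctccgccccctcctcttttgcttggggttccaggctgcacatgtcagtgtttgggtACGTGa
Ak4: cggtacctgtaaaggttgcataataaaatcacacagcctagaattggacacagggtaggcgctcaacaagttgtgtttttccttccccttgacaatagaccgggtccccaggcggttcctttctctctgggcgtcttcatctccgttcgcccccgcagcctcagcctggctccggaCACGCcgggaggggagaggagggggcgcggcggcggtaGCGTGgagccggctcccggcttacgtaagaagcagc
Gpi1: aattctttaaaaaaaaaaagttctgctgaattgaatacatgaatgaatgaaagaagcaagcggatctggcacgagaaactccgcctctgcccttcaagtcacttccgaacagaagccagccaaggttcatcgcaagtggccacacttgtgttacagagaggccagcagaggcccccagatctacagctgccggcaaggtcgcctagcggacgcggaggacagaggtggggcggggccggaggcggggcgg
Aldoa: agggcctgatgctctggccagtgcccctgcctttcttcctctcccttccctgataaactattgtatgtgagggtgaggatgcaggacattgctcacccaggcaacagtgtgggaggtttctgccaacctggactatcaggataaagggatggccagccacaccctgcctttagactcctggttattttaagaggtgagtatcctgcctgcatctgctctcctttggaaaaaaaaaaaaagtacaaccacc

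The windows lie at chr4:119108495-119108744 for Slc2a1, chrX:106186850-106187099 for Pgk1, chr11:120948817-120949066 for Slc16a3 and chr4:101419039-101419288 for Ak4, all on the plus strand. Those of Ankrd37 (chr8:45999851-46000100), Gpi1 (chr7:34230337-34230586) and Aldoa (chr7:126800448-126800697) are on the minus strand. The windows precede RefSeq starts, and those of Ankrd37, Slc16a3 and Aldoa lie wholly inside the longer GENCODE genes at chr8:45996902-46005707, chr11:120948480-120960868 and chr7:126795234-126800751. Those of Slc2a1 and Ak4 overlap the first bases of their GENCODE genes. A match is a description of the letters and not a bound site.

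Across the 14 classes, 388 pairs of a member and a class could be tested and 92 were called, 89 of them higher and 3 lower in anemia. Most calls fell into 4 classes. In endothelial-like cells 23 of 31 tested members rose and 1 fell, where 7.57% of all genes rose and 10.1% fell. Macrophage-like cells had 16 of 31 members higher and none lower, against 1.46% of all genes higher. Stellate-like cells had 17 of 30 higher and none lower, against 7.75%. In hepatocyte-like cells 18 of 29 rose and 2 fell, but there 27.5% of all genes rose and 26.4% fell, so the members' count there stands beside 53.9% of genes called in either direction. The stellate-like count fell from 17 to 4 (9.65% of all genes) without cells called as doublets, a call that removed most cells of that class (55.9% of control and 58.2% of anemic cells). Of the 17 calls, those of Hk2, Pgk1, Eno1 and Slc16a3 held without these cells and the other 13 were lost. Among the lost calls, the log2 fold change without these cells was 0.35 for Slc2a1, 0.28 for Gpi1, 0.28 for Pfkp, 0.28 for Aldoa, 0.33 for Tpi1, 0.39 for Gapdh and 0.16 for Pgam1. For the others it was 1.17 for Eno2, which was no smaller than with these cells, 0.19 for Pkm, 0.01 for Ldha, 0.31 for Slc16a1, 0.28 for Higd1a and 0.67 for Ak4. Among those that held, it was 1.10 for Hk2, 0.54 for Pgk1, 0.45 for Eno1 and 0.94 for Slc16a3. With clusters made at resolution 1 several stellate-like values were over 1.5 times larger, namely Gpi1 (0.56), Tpi1 (1.12), Pgam1 (0.91), Pkm (0.95), Ldha (0.58) and Slc16a1 (0.69).

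Endothelial markers were present in the stellate-like class. The summed level of 10 of them, in CPM of all UMIs, was 3693 to 6269 there in control and 2822 to 5782 in anemic mice. In endothelial-like cells it was 11808 to 13534 in control and 8969 to 13651 in anemic mice. None of the 10 was at 0 in the stellate-like class, and 5 fell there (Clec4g, Kdr, Ptprb, Egfl7 and Fcgr2b), beside 6.94% of all genes. Their part in the stellate-like results was not tested.

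The blood cell classes gave fewer calls. Pre-B-like cells had 9 of 29 members higher (0.868% of all genes), dendritic-like cells 3 of 30 (0.507%), erythroid-like cells 2 of 27 (0.319%) and T-like cells 1 of 28 (0.186%), with none lower. These counts depended on single mice, and the share of all genes called without a mouse is not given beside them. Without control 1, 4 or 5 the pre-B-like count was 5, 4 and 5, and without anemia 1 or 3 it was 5 each time. The dendritic-like count was 0 without control 1, 2, 4, 5 or 6 or anemia 3 and 6 without anemia 4. The erythroid-like count was 0 without control 1, 2, 4 or 6 and 1 without control 5 or anemia 1, and the T-like count was 0 without control 1, 2, 3, 4 or 5 or anemia 3.

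No member was called by edgeR in monocyte-like, neutrophil-like, NK-like, B-like, cholangiocyte-like or basophil or mast cell-like cells, where 0.639%, 0.29%, 0.152%, 1.38%, 0.0201% and 0.805% of all genes were called. In monocyte-like cells 16 members had an unadjusted p under 0.05 (15.1% of all genes), DESeq2 called 4 (1.69%) and the joint voom model 6 (1.39%). There edgeR called 8 members with the replicate number as a block (3.05% of all genes) and 5 without the filter on low counts (0.618%). In neutrophil-like cells 17 members had an unadjusted p under 0.05 (14.2% of all genes), DESeq2 called 4 (1.65%) and the joint voom model 2 (0.696%). The block gave 2 there (0.743%) and the missing filter 3 (0.597%). In NK-like cells 15 members had an unadjusted p under 0.05 (12.7% of all genes), DESeq2 called 5 (1%) and the joint voom model 10 (1.26%). In B-like cells 7 members had an unadjusted p under 0.05 (16.5% of all genes), DESeq2 called 1 (2.65%) and the joint voom model 2 (2.22%). Without the filter 1 member was called in each of these classes (0.182% and 2.16% of all genes). In cholangiocyte-like and basophil or mast cell-like cells 1 and 3 members had an unadjusted p under 0.05 (9.59% and 9.13% of all genes), and neither DESeq2 nor the voom model called any. The joint voom model fits the sums of all classes together without a term for the mouse. It therefore treats the class sums of 1 mouse as independent, unlike the tests made per class. Within single clusters of NK-like, B-like, monocyte-like and neutrophil-like cells some members did rise, as given with the other clusters.

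The median log2 fold change of the tested members was 0.53 in monocyte-like and 0.37 in NK-like cells, yet the values of the anemic mice were widely spread there. Without anemia 2 these medians were 0.26 and 0.20. The median over the members was 0.85 in hepatocyte-like, 0.70 in macrophage-like, 0.53 in endothelial-like, 0.50 in erythroid-like and 0.37 in stellate-like cells, beside medians over all tested genes of -0.02, 0.02, 0.00, -0.01 and 0.00. Scaling moved the median of all genes most in 2 classes: without TMM factors it was -0.40 in hepatocyte-like and -0.37 in erythroid-like cells. The members then had medians of 0.47 and 0.07, with 15 members higher (13.3% of all genes) and 7 lower (46.2%) in hepatocyte-like cells. In erythroid-like cells edgeR then called none (0.715% of all genes), with 1 member at an unadjusted p under 0.05 (9.18%). Without TMM factors, calls were also lost for Kdm3a, Mxi1 and Pdk3 in endothelial-like and for Ldha and Slc16a1 in stellate-like cells.

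The groups did not overlap, with every anemic mouse above every control, in 64 of the 89 pairs in which a member rose. Such separation held for 16 members in endothelial-like cells, 15 in hepatocyte-like, 18 in macrophage-like and 9 in stellate-like cells, called or not. Over all tested genes it held for 3.48%, 17.2%, 1.65% and 2.97%, in the same order. In pre-B-like cells it held for 3 members beside 0.829% of all genes, in dendritic-like cells for 3 beside 0.499%, in erythroid-like cells for 6 beside 1.09% and in T-like cells for 1 beside 0.301%. The opposite separation, as for Kdm3a in hepatocyte-like cells, held there for 12.7% of all genes.

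**Figure D2:**
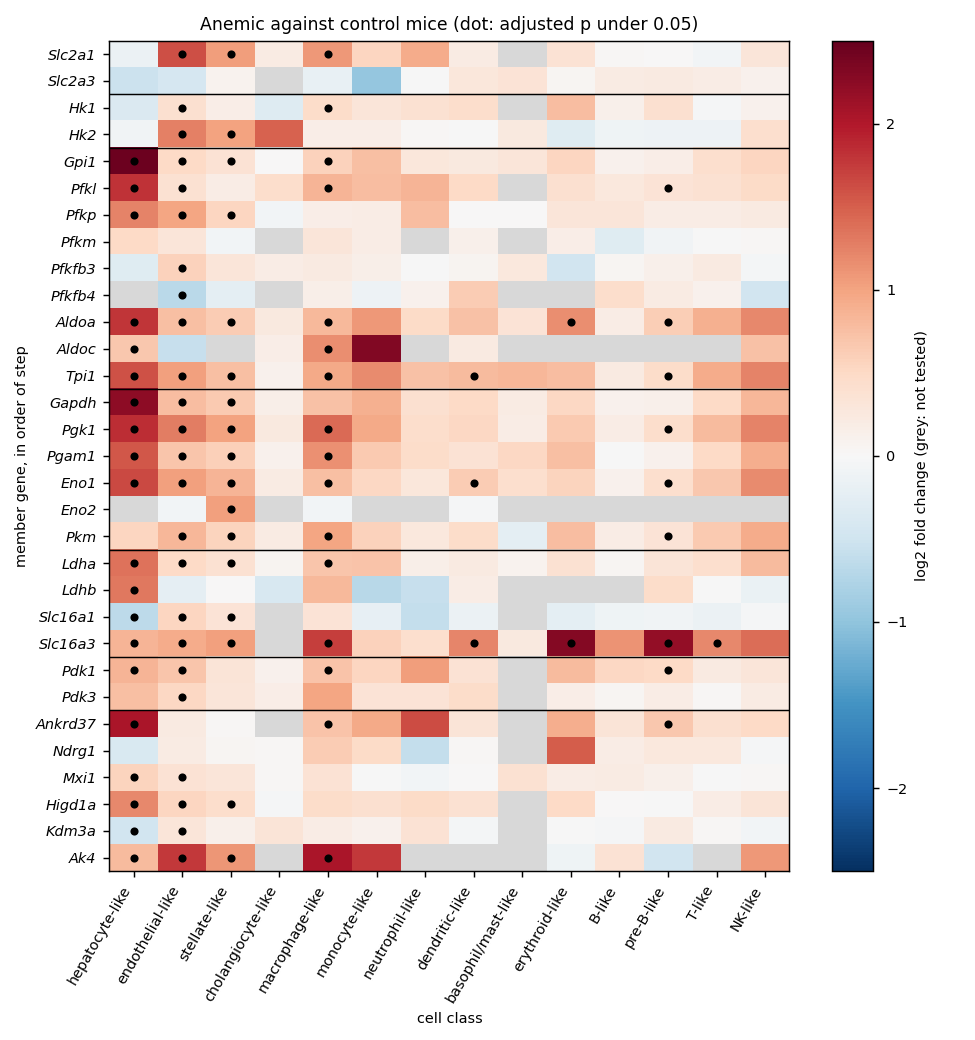
Log2 fold change of each member (rows, by step) between 6 anemic and 6 control mice in 14 cell classes (columns), with a dot where the edgeR adjusted p was under 0.05 and grey where the gene was not tested. The dots gather in the hepatocyte-like, endothelial-like, stellate-like and macrophage-like columns, and Slc16a3 has dots in 8 classes.

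Many cells take up glucose through Slc2a1, the widely used glucose transporter also known as GLUT1. In endothelial-like cells it ranged from 19.3 to 23.9 CPM in the control mice (median 20.1) and 40.8 to 73.7 CPM in the anemic mice (median 65.8). Every anemic mouse lay above every control, and the lowest anemic mouse was well apart from the other 5. The group values were 20.7 ± 1.68 CPM for controls and 62.7 ± 11.8 CPM for anemic mice (log2 fold change 1.60 ± 0.12, edgeR adjusted p = 1.76e-06). Slc2a1 also rose in macrophage-like cells from 27.2 ± 3.63 to 57.9 ± 7.64 CPM (log2 fold change 1.09 ± 0.11, edgeR adjusted p = 0.000257). Its rise in stellate-like cells was from 20.7 ± 2.77 to 42.3 ± 11.1 CPM (log2 fold change 1.04 ± 0.14, edgeR adjusted p = 0.000305). The groups did not overlap in either class. In hepatocyte-like cells, which take up glucose mainly through another transporter, its log2 fold change was -0.14 and not called. Slc2a3 was called in none of the 13 classes in which it was tested, with log2 fold changes from -0.96 in monocyte-like to 0.35 in basophil or mast cell-like cells. The first enzyme, hexokinase, traps glucose in the cell as a phosphate ester. Its inducible form Hk2 ranged in endothelial-like cells from 21.6 to 31.4 CPM in the control mice (median 27) and 50 to 93.3 CPM in the anemic mice (median 56.8), again with all 6 anemic mice above the controls. The means were 26.9 ± 3.62 CPM for controls and 64.5 ± 18.1 CPM for anemic mice (log2 fold change 1.26 ± 0.16, edgeR adjusted p = 0.000187). In stellate-like cells Hk2 rose from 85.6 ± 17.2 to 172 ± 49.7 CPM (log2 fold change 1.01 ± 0.17, edgeR adjusted p = 0.00109), whereas in macrophage-like cells, with the highest level of the larger classes, its log2 fold change was 0.17 and not called. The housekeeping form Hk1 ranged in endothelial-like cells from 99.3 to 113 CPM in the control mice (median 108) and 129.7 to 153 CPM in the anemic mice (median 142). These groups did not overlap, but the shift was small, from 107 ± 5.81 to 141 ± 7.81 CPM (log2 fold change 0.40 ± 0.059, edgeR adjusted p = 0.000568). Macrophage-like cells showed a like-sized rise of Hk1, from 26 ± 2.84 to 35.6 ± 3.15 CPM (log2 fold change 0.45 ± 0.092, edgeR adjusted p = 0.0213).

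After the hexokinase step, Gpi1 turns glucose 6-phosphate into fructose 6-phosphate. In hepatocyte-like cells it gave the largest log2 fold change of any member in any class, with 116 to 161 CPM in the control mice (median 129.7) and 599 to 962 CPM in the anemic mice (median 712). The lowest anemic mouse was far above the highest control. The group values were 133 ± 15.3 CPM for controls and 727 ± 130.0 CPM for anemic mice (log2 fold change 2.45 ± 0.12, edgeR adjusted p = 9.48e-10). Gpi1 also rose in macrophage-like cells from 223 ± 19.3 to 331 ± 62.9 CPM (log2 fold change 0.57 ± 0.12, edgeR adjusted p = 0.0216). Endothelial-like cells went from 222 ± 20.8 to 313 ± 27.2 CPM (log2 fold change 0.50 ± 0.077, edgeR adjusted p = 0.000827). In both classes the groups did not overlap. Stellate-like cells went from 164 ± 12.6 to 212 ± 26.4 CPM (log2 fold change 0.36 ± 0.09, edgeR adjusted p = 0.0132). Its log2 fold change was above 0 in all 14 classes.

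Phosphofructokinase commits sugar to glycolysis, and its liver-type subunit Pfkl was called in 4 classes. In hepatocyte-like cells Pfkl ranged from 33.1 to 46.6 CPM in the control mice (median 38.6) and 117 to 164 CPM in the anemic mice (median 137), without overlap. The means were 39.6 ± 5.45 CPM for controls and 139 ± 17.1 CPM for anemic mice (log2 fold change 1.81 ± 0.11, edgeR adjusted p = 5.1e-09). Pfkl rose in macrophage-like cells from 46.5 ± 4.08 to 83.8 ± 17.1 CPM (log2 fold change 0.85 ± 0.12, edgeR adjusted p = 0.00294). There, too, all 6 anemic mice exceeded the controls. The endothelial-like mean went from 136 ± 15.8 to 176 ± 15.5 CPM (log2 fold change 0.37 ± 0.084, edgeR adjusted p = 0.00771). The pre-B-like mean went from 45.7 ± 4.26 to 58.1 ± 4.9 CPM (log2 fold change 0.35 ± 0.081, edgeR adjusted p = 0.0276). In these last 2 classes 5 of 6 anemic mice exceeded the controls. The platelet-type subunit Pfkp ranged in endothelial-like cells from 20 to 28.2 CPM in the control mice (median 25.1) and 37.9 to 70.9 CPM in the anemic mice (median 45.2), with the groups apart. It rose there from 25 ± 2.75 to 49.5 ± 13.2 CPM (log2 fold change 0.99 ± 0.15, edgeR adjusted p = 0.000607). Pfkp also rose in stellate-like cells from 38.6 ± 4.32 to 56.2 ± 10.7 CPM (log2 fold change 0.55 ± 0.11, edgeR adjusted p = 0.00455). Its rise in hepatocyte-like cells was from 5.35 ± 2.54 to 13 ± 5.92 CPM (log2 fold change 1.24 ± 0.33, edgeR adjusted p = 0.00432), and 2.32 on the log2 scale without called doublets. In each, 1 anemic mouse was not above the controls. The muscle-type subunit Pfkm was called in none of 11 classes tested, with log2 fold changes between -0.31 in B-like and 0.49 in hepatocyte-like cells.

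Pfkfb3 and Pfkfb4 make fructose 2,6-bisphosphate, the activator of phosphofructokinase, and moved in opposite directions in endothelial-like cells. Pfkfb3 ranged from 53.8 to 70.1 CPM in the control mice (median 64.4) and 62.6 to 138 CPM in the anemic mice (median 92.3), and 5 of 6 anemic mice lay above the controls. Its rise was from 63.4 ± 6.2 to 95 ± 24.8 CPM (log2 fold change 0.58 ± 0.14, edgeR adjusted p = 0.0116). Pfkfb4 was lower, with 8.39 to 15.8 CPM in the control mice (median 11.9) and 3.94 to 12.8 CPM in the anemic mice (median 7.56). Only 4 of the 6 anemic mice were below all controls. The change was from 11.9 ± 2.48 to 7.67 ± 2.98 CPM (log2 fold change -0.67 ± 0.22, edgeR adjusted p = 0.0494), close to the threshold, and the call was lost in 8 of 12 other settings. No other class gave a call for either gene.

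Aldolase splits the 6-carbon sugar, and Aldoa, its form in most tissues, was called in 6 classes. In hepatocyte-like cells it ranged from 85.8 to 115 CPM in the control mice (median 93.5) and 266 to 524 CPM in the anemic mice (median 296). All anemic mice were above the controls, and anemia 2 was far above the other 5. The means were 96.7 ± 11.7 CPM for controls and 334 ± 98.5 CPM for anemic mice (log2 fold change 1.78 ± 0.15, edgeR adjusted p = 1.97e-07). Aldoa rose in pre-B-like cells from 285 ± 25.7 to 439 ± 68.5 CPM (log2 fold change 0.62 ± 0.089, edgeR adjusted p = 0.00078). Its rise in endothelial-like cells was from 523 ± 77.4 to 886 ± 157 CPM (log2 fold change 0.76 ± 0.12, edgeR adjusted p = 0.00101). Anemia 2 was the highest mouse in both of the following. Stellate-like cells went from 378 ± 52.6 to 586 ± 149 CPM (log2 fold change 0.63 ± 0.14, edgeR adjusted p = 0.00711). Macrophage-like cells went from 632 ± 82.1 to 1110.2 ± 424 CPM (log2 fold change 0.81 ± 0.20, edgeR adjusted p = 0.0466). In erythroid-like cells Aldoa rose from 54.9 ± 14.3 to 121 ± 42.6 CPM (log2 fold change 1.15 ± 0.22, edgeR adjusted p = 0.0311), with all 6 anemic mice above the controls. Aldoc, the aldolase of the brain, was rare. In macrophage-like cells it ranged from 1.51 to 2.99 CPM in the control mice (median 2.12) and 3.87 to 5.69 CPM in the anemic mice (median 5.04), so the groups were separate at a few CPM. Its change there was from 2.2 ± 0.498 to 4.88 ± 0.785 CPM (log2 fold change 1.16 ± 0.18, edgeR adjusted p = 0.0065). The hepatocyte-like change was from 6.78 ± 1.38 to 11.4 ± 3.04 CPM (log2 fold change 0.67 ± 0.20, edgeR adjusted p = 0.00832). Triose phosphate isomerase (Tpi1) interconverts the products of the split and was called in 6 classes. It ranged in hepatocyte-like cells from 184 to 252 CPM in the control mice (median 199) and 538 to 795 CPM in the anemic mice (median 589), with every anemic mouse well above the highest control. The means were 206 ± 24.2 CPM for controls and 620.1 ± 91 CPM for anemic mice (log2 fold change 1.59 ± 0.11, edgeR adjusted p = 2.3e-08).

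Tpi1 rose in endothelial-like cells from 167 ± 15.8 to 340.0 ± 35.1 CPM (log2 fold change 1.03 ± 0.084, edgeR adjusted p = 3.83e-06). Its rise in stellate-like cells was from 136 ± 14.8 to 227 ± 35 CPM (log2 fold change 0.75 ± 0.11, edgeR adjusted p = 0.000375). Both classes had the groups apart. Macrophage-like cells went from 190.1 ± 11 to 366 ± 114 CPM (log2 fold change 0.95 ± 0.16, edgeR adjusted p = 0.00754). Dendritic-like cells went from 70.9 ± 10.3 to 122 ± 39.9 CPM (log2 fold change 0.79 ± 0.16, edgeR adjusted p = 0.0279). Pre-B-like cells went from 135 ± 14.6 to 186 ± 29.7 CPM (log2 fold change 0.46 ± 0.093, edgeR adjusted p = 0.0107). Its log2 fold change was above 0 in all 14 classes. Of the calls in upper glycolysis, those lost when 1 mouse was left out were Gpi1 in macrophage-like cells without control 4, 5 or 6 or anemia 3 (edgeR adjusted p 0.0513 to 0.058), Pfkl in pre-B-like cells without control 1, 4, 5 or 6 or anemia 1, 3 or 6 (edgeR adjusted p 0.0535 to 0.078), Pfkfb4 in endothelial-like cells without control 1, 2, 4, 5 or 6 or anemia 1, 2, 4, 5 or 6 (edgeR adjusted p 0.0634 to 0.114), Aldoa in macrophage-like cells without any 1 control or anemia 3 (edgeR adjusted p 0.0714 to 0.109), Aldoa in erythroid-like cells without control 1, 2, 4, 5 or 6 or anemia 3 (edgeR adjusted p 0.0549 to 0.0871) and Tpi1 in dendritic-like cells without control 1, 2, 4, 5 or 6 or anemia 3 (edgeR adjusted p 0.054 to 0.0736). Among the hexokinases it was Hk1 in macrophage-like cells without control 4 or 5 or anemia 3 (edgeR adjusted p 0.0503 to 0.0556). Under other settings, calls of these steps outside stellate-like cells (other filters, scalings, clusterings, covariates or models) were lost for Hk1 in macrophage-like cells at resolution 1 (adjusted p 0.0602) and for Pfkl in pre-B-like cells with Xist as a covariate, without called doublets or in the joint voom model (adjusted p 0.0563 to 0.097). The aldolase calls lost were Aldoa in macrophage-like cells at a mean of at least 50 UMIs, with Xist as a covariate or in cells with less hepatocyte and globin RNA (adjusted p 0.0584 to 0.0652), Aldoa in erythroid-like cells without TMM factors or in the joint voom model (log2 fold change down to 0.71, adjusted p 0.0709 to 0.558) and Aldoc in hepatocyte-like cells without TMM factors, without called doublets or in the joint voom model (log2 fold change down to 0.29, adjusted p 0.103 to 0.241). Those of Tpi1 were Tpi1 in dendritic-like cells at resolution 1 (adjusted p 0.0948) and Tpi1 in pre-B-like cells without called doublets (adjusted p 0.0582). In stellate-like cells Gpi1 was also lost in cells with less hepatocyte and globin RNA, with a log2 fold change of 0.29.

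Lower glycolysis, where ATP is made, opens with Gapdh, which reduces the cofactor that lactate formation later renews. In hepatocyte-like cells Gapdh ranged from 1464 to 1906 CPM in the control mice (median 1629) and 6725 to 10061 CPM in the anemic mice (median 7324). The groups were far apart, with anemia 2 the highest. The means were 1645 ± 168 CPM for controls and 7714 ± 1215 CPM for anemic mice (log2 fold change 2.23 ± 0.11, edgeR adjusted p = 9.94e-10). Gapdh rose in endothelial-like cells from 1230.4 ± 189 to 2108 ± 316 CPM (log2 fold change 0.78 ± 0.12, edgeR adjusted p = 0.000633). Its rise in stellate-like cells was from 864 ± 118 to 1369.9 ± 441 CPM (log2 fold change 0.66 ± 0.16, edgeR adjusted p = 0.0123). In macrophage-like cells its log2 fold change was 0.74 and not called. Gapdh is often used as a reference gene. Phosphoglycerate kinase (Pgk1) yields the first ATP. In endothelial-like cells it rose from 287 ± 20.3 to 694 ± 75.9 CPM (log2 fold change 1.27 ± 0.082, edgeR adjusted p = 5.82e-07), without overlap of the groups.

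In hepatocyte-like cells Pgk1 gave its smallest adjusted p, with 207 to 268 CPM in the control mice (median 229) and 726 to 1107 CPM in the anemic mice (median 778). All anemic mice stood above the controls, and the means were 232 ± 25.1 CPM for controls and 834 ± 139 CPM for anemic mice (log2 fold change 1.84 ± 0.11, edgeR adjusted p = 6.11e-09). Pgk1 rose in macrophage-like cells from 196 ± 10.5 to 523 ± 223 CPM (log2 fold change 1.41 ± 0.21, edgeR adjusted p = 0.00495), where the anemic mice were widely spread. The stellate-like mean went from 152 ± 6.51 to 305 ± 60.7 CPM (log2 fold change 1.00 ± 0.11, edgeR adjusted p = 5.22e-05). The pre-B-like mean went from 295 ± 29.9 to 401 ± 35.9 CPM (log2 fold change 0.44 ± 0.074, edgeR adjusted p = 0.00301). Phosphoglycerate mutase (Pgam1) ranged in hepatocyte-like cells from 104 to 138 CPM in the control mice (median 111) and 296 to 417 CPM in the anemic mice (median 325), without overlap. The means were 114 ± 12.7 CPM for controls and 336 ± 44.2 CPM for anemic mice (log2 fold change 1.55 ± 0.10, edgeR adjusted p = 1.76e-08). Pgam1 rose in macrophage-like cells from 191 ± 8.98 to 423 ± 163 CPM (log2 fold change 1.15 ± 0.18, edgeR adjusted p = 0.0065). There anemia 2 was far above the other anemic mice, which still exceeded the controls. Endothelial-like cells went from 131 ± 13.1 to 213 ± 24.9 CPM (log2 fold change 0.70 ± 0.089, edgeR adjusted p = 0.000206). Stellate-like cells went from 107 ± 7.12 to 161 ± 35.4 CPM (log2 fold change 0.59 ± 0.12, edgeR adjusted p = 0.00313).

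Enolase (Eno1), the next enzyme, was called in 6 classes. It ranged in hepatocyte-like cells from 214 to 316 CPM in the control mice (median 252) and 642 to 944 CPM in the anemic mice (median 816), and here anemia 4, not anemia 2, was the highest. The means were 255 ± 35.7 CPM for controls and 806 ± 124 CPM for anemic mice (log2 fold change 1.66 ± 0.12, edgeR adjusted p = 3.8e-08). Eno1 rose in endothelial-like cells from 283 ± 42.2 to 572 ± 48.3 CPM (log2 fold change 1.02 ± 0.095, edgeR adjusted p = 1.37e-05). The stellate-like mean went from 171 ± 19.3 to 308 ± 44 CPM (log2 fold change 0.85 ± 0.10, edgeR adjusted p = 0.000117). The macrophage-like mean went from 336 ± 24.5 to 565 ± 155 CPM (log2 fold change 0.75 ± 0.15, edgeR adjusted p = 0.0205). In all of these every anemic mouse exceeded the controls. It also rose in dendritic-like cells from 157 ± 23.1 to 243 ± 63.6 CPM (log2 fold change 0.64 ± 0.14, edgeR adjusted p = 0.0372). The pre-B-like rise was from 271 ± 40.3 to 360.2 ± 51 CPM (log2 fold change 0.42 ± 0.10, edgeR adjusted p = 0.0286). In both, 1 or 2 anemic mice were not above the controls.

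Eno2, the enolase of neurons, passed the filter in 4 classes only and was called in stellate-like cells. There it ranged from 2.62 to 4.74 CPM in the control mice (median 3.62) and 5.34 to 10.7 CPM in the anemic mice (median 8.33), apart but low. The change was from 3.67 ± 0.857 to 8.04 ± 2.06 CPM (log2 fold change 1.03 ± 0.22, edgeR adjusted p = 0.00588). Pyruvate kinase (Pkm) completes the pathway. In endothelial-like cells it ranged from 540.1 to 736 CPM in the control mice (median 598) and 970.1 to 1356 CPM in the anemic mice (median 1069.5), without overlap. The means were 619.6 ± 70.8 CPM for controls and 1105 ± 144 CPM for anemic mice (log2 fold change 0.83 ± 0.10, edgeR adjusted p = 0.000119). Pkm also rose in macrophage-like cells from 439.6 ± 40.4 to 872 ± 287 CPM (log2 fold change 0.99 ± 0.17, edgeR adjusted p = 0.0099). Stellate-like cells went from 380.1 ± 24.8 to 563 ± 119 CPM (log2 fold change 0.57 ± 0.12, edgeR adjusted p = 0.00393). In both classes all 6 anemic mice exceeded the controls. Pre-B-like cells went from 403 ± 44 to 507 ± 66.9 CPM (log2 fold change 0.33 ± 0.086, edgeR adjusted p = 0.0463). In hepatocyte-like cells its log2 fold change was 0.53 and not called. Calls of these steps lost without 1 mouse were Eno1 in macrophage-like cells without control 1 or 4 or anemia 3 (edgeR adjusted p 0.0503 to 0.0583), Eno1 in dendritic-like cells without control 1, 2, 4, 5 or 6 or anemia 3 (edgeR adjusted p 0.0698 to 0.0936), Eno1 in pre-B-like cells without control 1, 2, 4, 5 or 6 or anemia 1, 4 or 6 (edgeR adjusted p 0.0535 to 0.0716) and Pkm in pre-B-like cells without control 1, 2, 4, 5 or 6 or anemia 1, 2, 3, 4 or 6 (edgeR adjusted p 0.0677 to 0.107). Under other settings, those outside stellate-like cells were lost for Eno1 in dendritic-like cells at a mean of at least 50 UMIs, in cells with less hepatocyte and globin RNA or at resolution 1 (adjusted p 0.0521 to 0.105), Eno1 in pre-B-like cells without called doublets or at resolution 1 (adjusted p 0.0543 to 0.0674) and Pkm in pre-B-like cells in 6 of 12 other settings (adjusted p 0.0576 to 0.158).

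**Figure D3:**
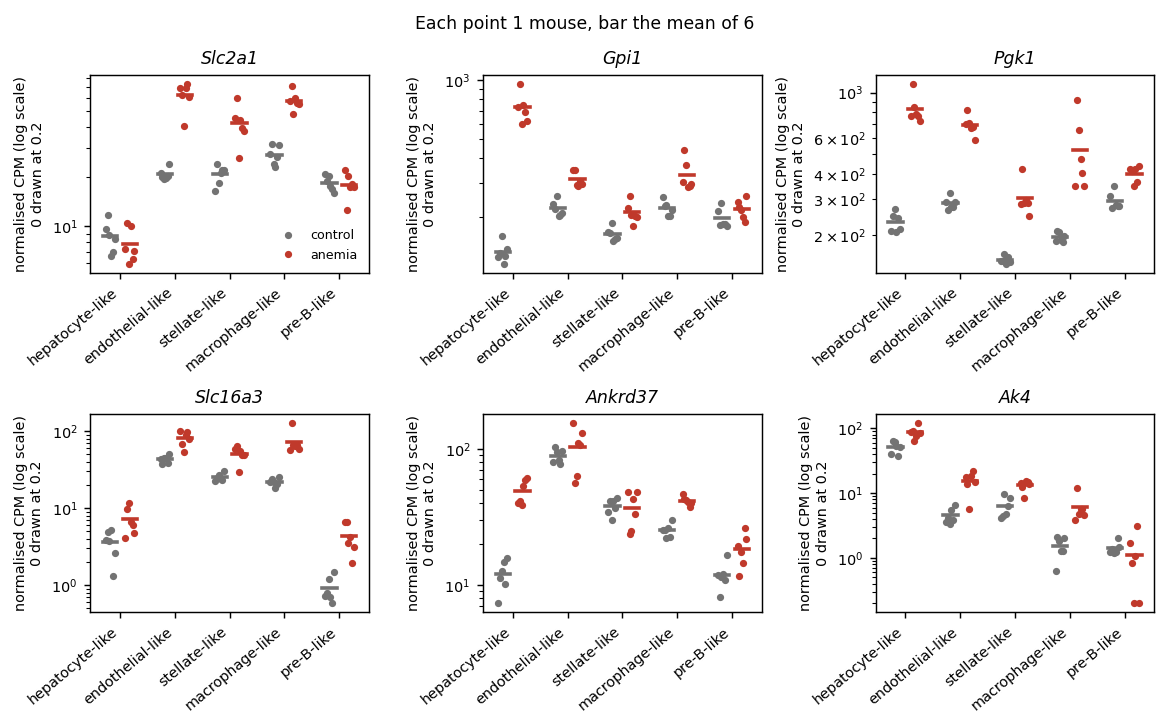
Normalised CPM on a log axis of 6 members in 5 cell classes, with 1 point per mouse (grey control, red anemia), a bar at the mean of 6, and values of 0 drawn at 0.2. Slc2a1 separates the groups in endothelial-like, stellate-like and macrophage-like cells but not in hepatocyte-like cells, whereas Gpi1 and Ankrd37 separate most in hepatocyte-like cells.

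Lactate dehydrogenase turns pyruvate into lactate. Its subunit Ldha ranged in hepatocyte-like cells from 1121 to 1485 CPM in the control mice (median 1183) and 2480.1 to 3917 CPM in the anemic mice (median 3148), with no overlap. The means were 1232 ± 139 CPM for controls and 3139 ± 468 CPM for anemic mice (log2 fold change 1.35 ± 0.11, edgeR adjusted p = 1.35e-07). Ldha rose in endothelial-like cells from 598 ± 68.4 to 844 ± 60.4 CPM (log2 fold change 0.50 ± 0.083, edgeR adjusted p = 0.00128). The macrophage-like mean went from 573 ± 41.7 to 919.6 ± 227 CPM (log2 fold change 0.68 ± 0.14, edgeR adjusted p = 0.0198). In these 2 classes the groups did not overlap, and in macrophage-like cells anemia 2 lay far above the rest of its group. The stellate-like mean went from 421 ± 36.7 to 545 ± 95 CPM (log2 fold change 0.37 ± 0.11, edgeR adjusted p = 0.0283). The heart-type subunit Ldhb, which favours the reverse reaction, ranged in hepatocyte-like cells from 3.3 to 8.56 CPM in the control mice (median 5.74) and 10.6 to 21.6 CPM in the anemic mice (median 14.4). Those groups did not overlap, at a level far under that of Ldha. It changed from 5.76 ± 1.99 to 15.1 ± 3.65 CPM (log2 fold change 1.32 ± 0.22, edgeR adjusted p = 0.000109) and was called in no other class, with log2 fold changes down to -0.70 in monocyte-like cells.

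The carriers of lactate across the cell membrane follow. Slc16a3, the exporter of glycolytic cells also known as MCT4, was called in 8 classes, more than any other member. Its smallest adjusted p was in stellate-like cells, with 22.6 to 30.4 CPM in the control mice (median 24.3) and 29.6 to 64.2 CPM in the anemic mice (median 52.3). There 5 of 6 anemic mice were above every control. The means were 25.2 ± 2.91 CPM for controls and 51.1 ± 12 CPM for anemic mice (log2 fold change 1.03 ± 0.13, edgeR adjusted p = 0.000184). Slc16a3 rose in endothelial-like cells from 43.5 ± 4.6 to 82.1 ± 18.8 CPM (log2 fold change 0.92 ± 0.14, edgeR adjusted p = 0.000568), where the groups did not overlap. Pre-B-like cells, with the lowest control level of the 12 larger classes, went from 0.908 ± 0.348 to 4.34 ± 1.92 CPM (log2 fold change 2.20 ± 0.33, edgeR adjusted p = 0.00113). In macrophage-like cells it rose from 22.2 ± 2.58 to 73.4 ± 27.2 CPM (log2 fold change 1.73 ± 0.19, edgeR adjusted p = 0.000431), with anemia 2 far above the rest. Dendritic-like cells went from 11 ± 2.96 to 25.2 ± 12.7 CPM (log2 fold change 1.22 ± 0.28, edgeR adjusted p = 0.0419). Erythroid-like cells went from 1.6 ± 0.908 to 7.07 ± 3.83 CPM (log2 fold change 2.29 ± 0.46, edgeR adjusted p = 0.0394). In these and in T-like cells all 6 anemic mice exceeded the controls. The T-like change was from 14.1 ± 2.74 to 30.8 ± 14.9 CPM (log2 fold change 1.20 ± 0.25, edgeR adjusted p = 0.0345). The hepatocyte-like change was from 3.61 ± 1.46 to 7.13 ± 2.96 CPM (log2 fold change 0.86 ± 0.31, edgeR adjusted p = 0.0291), with 4 anemic mice above the controls. In neutrophil-like cells, with the highest level, its log2 fold change was 0.42 and not called.

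Slc16a1, the carrier also known as MCT1, was called in both directions. In hepatocyte-like cells it was lower, with 89.2 to 122 CPM in the control mice (median 104) and 51.2 to 89.8 CPM in the anemic mice (median 63.5). Of the anemic mice, 5 of 6 were below all controls. The means were 103 ± 12.2 CPM for controls and 64.8 ± 13.5 CPM for anemic mice (log2 fold change -0.66 ± 0.12, edgeR adjusted p = 0.000281). In endothelial-like cells it was higher, with 17.1 to 20.6 CPM in the control mice (median 19.1) and 24.2 to 29.7 CPM in the anemic mice (median 27.7), and the groups did not overlap. Those means were 19.1 ± 1.18 CPM for controls and 27.6 ± 2.03 CPM for anemic mice (log2 fold change 0.53 ± 0.073, edgeR adjusted p = 0.000355). It also rose in stellate-like cells from 15.8 ± 1.38 to 19.7 ± 1.62 CPM (log2 fold change 0.33 ± 0.10, edgeR adjusted p = 0.0374). The macrophage-like call of Ldha was lost without control 1 or 4 (edgeR adjusted p 0.053 to 0.0566). Other lactate calls lost without 1 mouse were Ldha in stellate-like cells without control 1, 2, 4, 5 or 6 (edgeR adjusted p 0.0599 to 0.0679), Slc16a1 in stellate-like cells without control 2, 4, 5 or 6 or anemia 1, 3, 4 or 6 (edgeR adjusted p 0.0529 to 0.0865), Slc16a3 in hepatocyte-like cells without control 5 or 6 or anemia 2 or 3 (edgeR adjusted p 0.0506 to 0.0668), Slc16a3 in dendritic-like cells without any 1 control or anemia 2 or 3 (edgeR adjusted p 0.0564 to 0.102), Slc16a3 in erythroid-like cells without control 1, 2, 4, 5 or 6 or anemia 1 (edgeR adjusted p 0.0664 to 0.118) and Slc16a3 in T-like cells without control 1, 2, 3, 4 or 5 or anemia 3 (edgeR adjusted p 0.0593 to 0.108). Under other settings calls were lost for Ldha in stellate-like cells without TMM factors, with the replicate block or without called doublets (log2 fold change down to 0.01, adjusted p 0.0562 to 0.995) and Slc16a1 in stellate-like cells in 9 of 12 other settings (adjusted p 0.0521 to 0.593). Slc16a3 in hepatocyte-like cells was lost without TMM factors and at no more than 10% mitochondrial UMIs. It was also lost there in cells with less globin RNA and in the joint voom model. Over these settings its log2 fold change was down to 0.44 (adjusted p 0.083 to 0.32). Slc16a3 in dendritic-like cells was lost without called doublets, in cells with less hepatocyte and globin RNA, at resolution 1 or with members among the clustering genes (adjusted p 0.0564 to 0.0965). Further such calls were Slc16a3 in erythroid-like cells without TMM factors, with the replicate block, without called doublets or in cells with less hepatocyte RNA (adjusted p 0.0569 to 0.116). Slc16a3 in T-like cells was lost without called doublets, at resolution 1 or in the joint voom model (adjusted p 0.0527 to 0.0886). The log2 fold change of Slc16a1 in hepatocyte-like cells was -0.41 at no more than 10% mitochondrial UMIs, -1.04 without TMM factors and -1.07 without called doublets, each time called.

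Pdk1 and Pdk3 are kinases that switch off pyruvate dehydrogenase, the entry of pyruvate into the mitochondrial cycle. Pdk1 ranged in endothelial-like cells from 53.4 to 67.8 CPM in the control mice (median 61.3) and 89 to 111 CPM in the anemic mice (median 97.5). The groups were well separated there. The means were 61.6 ± 4.97 CPM for controls and 99.1 ± 9.98 CPM for anemic mice (log2 fold change 0.69 ± 0.078, edgeR adjusted p = 8.95e-05). Pdk1 rose likewise in hepatocyte-like cells from 16.9 ± 2.84 to 29.7 ± 5.46 CPM (log2 fold change 0.85 ± 0.14, edgeR adjusted p = 9.41e-05). Its rise in macrophage-like cells was from 32.6 ± 1.19 to 53.1 ± 6.42 CPM (log2 fold change 0.70 ± 0.085, edgeR adjusted p = 0.00133). In pre-B-like cells it rose from 16.7 ± 2.67 to 23.3 ± 2.01 CPM (log2 fold change 0.49 ± 0.11, edgeR adjusted p = 0.0262). Pdk3 had positive log2 fold changes in all 13 classes tested but was called only in endothelial-like cells. It ranged there from 16.5 to 28.3 CPM in the control mice (median 19.8) and 22.8 to 41.2 CPM in the anemic mice (median 26), so that only 2 anemic mice exceeded the controls. The change was from 20.3 ± 4.34 to 29.4 ± 7.52 CPM (log2 fold change 0.52 ± 0.17, edgeR adjusted p = 0.0431). Calls of these kinases lost without 1 mouse were Pdk1 in pre-B-like cells without control 4 or anemia 3 or 4 (edgeR adjusted p 0.0579 to 0.0687) and Pdk3 in endothelial-like cells without control 1, 3, 4, 5 or 6 or anemia 2, 3 or 5 (edgeR adjusted p 0.0503 to 0.0961). Under other settings they were Pdk1 in pre-B-like cells with Xist as a covariate or without called doublets (adjusted p 0.0515 to 0.0837) and Pdk3 in endothelial-like cells without TMM factors, with Xist as a covariate or in cells with less hepatocyte and globin RNA (adjusted p 0.0628 to 0.087). Without TMM factors Pdk1 in hepatocyte-like cells had a log2 fold change of 0.47 and was still called.

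Among the hypoxia targets outside glycolysis, Ankrd37, a small ankyrin repeat protein, was called in 3 classes. It ranged in hepatocyte-like cells from 7.34 to 15.8 CPM in the control mice (median 11.9) and 38.6 to 61.5 CPM in the anemic mice (median 47.6), with the groups far apart. The means were 12 ± 3.09 CPM for controls and 49.2 ± 10.3 CPM for anemic mice (log2 fold change 2.04 ± 0.17, edgeR adjusted p = 1.92e-07). It rose in macrophage-like cells from 25.3 ± 2.86 to 41.6 ± 2.98 CPM (log2 fold change 0.71 ± 0.089, edgeR adjusted p = 0.00164). The pre-B-like rise was from 11.9 ± 2.75 to 18.5 ± 5.21 CPM (log2 fold change 0.67 ± 0.17, edgeR adjusted p = 0.0424). In endothelial-like cells, which had its highest control level, the log2 fold change was 0.23 and not called. Ak4 ranged in hepatocyte-like cells from 37.6 to 63.7 CPM in the control mice (median 51.9) and 64.7 to 122 CPM in the anemic mice (median 85.6), without overlap. It rose there from 51.1 ± 10.5 to 87.4 ± 19.3 CPM (log2 fold change 0.79 ± 0.15, edgeR adjusted p = 0.000374), and by 0.41 on the log2 scale without TMM factors. From low levels it rose in endothelial-like cells from 4.54 ± 1.28 to 15.5 ± 5.55 CPM (log2 fold change 1.78 ± 0.25, edgeR adjusted p = 0.000466). In that class 5 of 6 anemic mice were above the controls. The stellate-like rise was from 6.32 ± 2.29 to 13.2 ± 2.64 CPM (log2 fold change 1.10 ± 0.21, edgeR adjusted p = 0.00252). The macrophage-like rise was from 1.52 ± 0.562 to 6.14 ± 3.03 CPM (log2 fold change 2.05 ± 0.33, edgeR adjusted p = 0.0065), with anemia 2 far above the others.

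Higd1a, a protein of the inner mitochondrial membrane, ranged in hepatocyte-like cells from 129 to 184 CPM in the control mice (median 148) and 294 to 377 CPM in the anemic mice (median 352), again apart. The means were 151 ± 19.3 CPM for controls and 346 ± 28 CPM for anemic mice (log2 fold change 1.20 ± 0.10, edgeR adjusted p = 1.23e-07). Endothelial-like cells went from 87.9 ± 8.79 to 128 ± 22.9 CPM (log2 fold change 0.55 ± 0.11, edgeR adjusted p = 0.00492). Stellate-like cells went from 93.6 ± 10.8 to 127 ± 16.4 CPM (log2 fold change 0.45 ± 0.10, edgeR adjusted p = 0.00673).

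Mxi1, which opposes the transcription factor Myc, ranged in hepatocyte-like cells from 18 to 30.2 CPM in the control mice (median 25.9) and 32.3 to 42.3 CPM in the anemic mice (median 37.5). Those groups did not overlap. It rose from 25.5 ± 4.45 to 37.8 ± 3.99 CPM (log2 fold change 0.57 ± 0.12, edgeR adjusted p = 0.00101). The endothelial-like rise was from 174 ± 11.8 to 224 ± 40.2 CPM (log2 fold change 0.37 ± 0.11, edgeR adjusted p = 0.029). Kdm3a, a histone demethylase, was called in opposite directions. In hepatocyte-like cells it was lower, with 23.3 to 30.9 CPM in the control mice (median 26.7) and 12.8 to 22.4 CPM in the anemic mice (median 18.7), and all 6 anemic mice were below the controls. The means were 26.5 ± 2.85 CPM for controls and 18.5 ± 3.34 CPM for anemic mice (log2 fold change -0.49 ± 0.13, edgeR adjusted p = 0.00387). Without TMM factors the log2 fold change was -0.87. In endothelial-like cells it was higher, with 94.8 to 115 CPM in the control mice (median 111) and 112 to 174 CPM in the anemic mice (median 128), and 4 anemic mice exceeded the controls. The change was from 107 ± 7.76 to 132 ± 23.1 CPM (log2 fold change 0.31 ± 0.10, edgeR adjusted p = 0.0484). Ndrg1 was called in none of 13 classes, with log2 fold changes from -0.60 in neutrophil-like to 1.51 in erythroid-like cells. The calls lost without 1 mouse were Ankrd37 in pre-B-like cells without control 1, 2, 3, 4 or 5 or anemia 1, 3, 5 or 6 (edgeR adjusted p 0.0641 to 0.106), Mxi1 in endothelial-like cells without control 1, 4 or 5 or anemia 1, 4 or 5 (edgeR adjusted p 0.0523 to 0.0597) and Kdm3a in endothelial-like cells without any 1 control or anemia 1, 4, 5 or 6 (edgeR adjusted p 0.0531 to 0.0953). Under other settings the calls lost outside stellate-like cells were as follows. Ankrd37 in pre-B-like cells was lost at a mean of at least 50 UMIs or with Xist as a covariate (adjusted p 0.0557 to 0.0779). Mxi1 in hepatocyte-like cells was lost without TMM factors, at no more than 10% mitochondrial UMIs or in cells with less globin RNA (log2 fold change down to 0.19, adjusted p 0.129 to 0.251). Mxi1 in endothelial-like cells was lost without TMM factors, with the replicate block or with Xist as a covariate (adjusted p 0.0514 to 0.0854). Kdm3a in endothelial-like cells was lost in 6 of 12 other settings (adjusted p 0.0501 to 0.143).

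The test was repeated within single clusters, since their shares of a class differed between the groups. In the hepatocyte-like class, cluster 18, led by Apob and Cps1, went from 31.7 ± 3.59% of the class in controls to 13.2 ± 3.11% in anemic mice. Within each of the 5 hepatocyte-like clusters, 10 to 13 of 15 to 27 tested members rose and none fell, while 2.66% to 8.98% of all genes were called (8.98%, 7.23%, 7.62%, 2.66% and 4.51% in clusters 15, 16, 18, 21 and 38). Gpi1 (1.26 to 2.06), Gapdh (0.96 to 1.49), Pgk1 (1.08 to 1.23), Aldoa (0.74 to 1.27), Tpi1 (0.80 to 1.07) and Pgam1 (0.82 to 1.07) rose in all 5 clusters, here with the range of log2 fold changes. These are smaller than over the whole class. Ankrd37 rose in 4 of 5 (0.86 to 1.89). Neither Slc16a1 nor Kdm3a was called within any hepatocyte-like cluster, with log2 fold changes of -0.60 to 0.01 in 3 clusters and 0.08 to 0.09 in 2. Ak4 (-0.06 to 0.76 in 5 clusters) and Ldhb (0.04 to 1.15 in 3) were not called within these clusters either. The same held for Aldoc (0.22 to 0.37 in 2) and Slc16a3 (1.15 in 1).

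In the 6 endothelial-like clusters tested, 1 of them without 1 anemic mouse of too few cells, 6 to 22 members rose. Clusters 3, 6, 30, 31, 37 and 49 had 22, 19, 12, 8, 15 and 6 members higher, beside 18.2%, 13.9%, 18.3%, 0.788%, 6.72% and 1.1% of all genes called. Pgk1 (0.86 to 1.81), Eno1 (0.81 to 1.49), Tpi1 (0.78 to 1.26), Pkm (0.66 to 1.19) and Aldoa (0.57 to 1.36) rose in all 6, and Slc2a1 rose in the 5 in which it was tested (1.29 to 1.71). Pfkfb4 fell in 2 of 4 (-1.03 to -0.63). Pdk3 was called in none of 5 (0.13 to 0.51), and Hk1, Pfkp and Slc16a1 were called in cluster 3 only. In the endothelial-like class, cluster 3 made up 27.9 ± 5.6% of the class in controls and 52.4 ± 5.11% in anemic mice, and cluster 6 43.3 ± 2.67% of the class in controls and 15.7 ± 4.61% in anemic mice. The 2 stellate-like clusters differed in their counts and in their leading genes. Cluster 29 made up 58 ± 7.91% of the class in controls and 28.7 ± 8.36% in anemic mice, and cluster 27 the rest. Cluster 29, led by Colec11 and Reln, had 22 of 29 members higher and 1 lower (6.51% of all genes called). Cluster 27, led by Mfap4, Col1a1 and Lum, matrix genes also known from fibroblasts, with neither Colec11 nor Reln among its 10 leading genes, had 1 of 30 higher (0.375%), although its median over the members was 0.34. A test of the difference between these clusters was not made. Among macrophage-like clusters, 5 and 7 with the Kupffer cell genes Clec4f and Vsig4 had 14 of 31 and 7 of 27 members higher (2.27% and 0.592% of all genes called), and cluster 5 had 5 anemic mice with enough cells. The share of each cluster in the macrophage-like class differed between the groups, most of all in anemia 2 and anemia 3, and the class-level values join these clusters. Cluster 5 made up 54.3 ± 3.11% of the class in controls and 32.5 ± 20.7% in anemic mice. Cluster 7 made up 35.6 ± 4.29% of the class in controls and 40.3 ± 4.32% in anemic mice. Cluster 24 made up 4.02 ± 1.68% of the class in controls and 23.7 ± 25.2% in anemic mice. In anemia 2 and anemia 3, cluster 5 held 0.502% and 12% of the class and cluster 24 65.2% and 44.5%. This last cluster, led by Saa3 and Serpinb2 and with 47.7% of its cells from anemia 2, had none of 30 called by edgeR and 13 at an unadjusted p under 0.05 (5.49% of all genes), where 0.00887% of all genes were called. Aldoa (0.61 to 1.21) and Hk1 (0.25 to 0.56) were called in none of these 3 macrophage-like clusters. In erythroid-like clusters 1, 4, 8 and 35, 2, 5, 3 and 3 members rose, beside 6.92%, 6.46%, 8.05% and 0.319% of all genes called. Without TMM factors these counts were 1, 1, 0 and 2, beside 7.02%, 6.58%, 7.63% and 0.661% of all genes, and cluster 8 then had 3 members at an unadjusted p under 0.05 (23.6% of its genes). With TMM factors Aldoa rose in all 4 of them (1.12 to 1.41), and Slc16a3 in the only one where it could be tested, cluster 35, led by Rhd, Hemgn and Car1 (log2 fold change 2.29). In the monocyte-like class, cluster 13, led by Ccr2, had 4 of 27 members higher, namely Tpi1, Gpi1, Pgam1 and Pgk1, against 1.41% of all genes called.

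Single clusters of the other blood cell classes are given here with the members called and the share of all genes called. In the NK-like class, whose sum over clusters gave no call, 4 of 5 clusters had members higher and none lower. Clusters 10, 25, 34 and 39 had 5 of 26, 3 of 23, 6 of 25 and 7 of 23 members higher, beside 0.996%, 0.446%, 0.496% and 0.54% of all genes. Eno1, Aldoa and Pgk1 rose in all 4, with log2 fold changes in these and cluster 45 of 0.67 to 1.24, 0.90 to 1.47 and 0.94 to 1.41. Tpi1 rose in 3 of them and Slc16a3 in 2. Cluster 45, with 5 anemic mice, had none called by edgeR (0.204% of all genes) and 14 of 24 at an unadjusted p under 0.05 (7.74%). In the B-like class, cluster 41, also with 5 anemic mice, had 4 of 16 members higher (Gapdh, Gpi1, Tpi1 and Pfkl), beside 0.635% of all genes. By edgeR none was called in B-like clusters 0, 14, 19 and 47 (1.8%, 1.13%, 0.868% and 0.0888% of all genes), with 1, 8, 4 and 2 at an unadjusted p under 0.05 (14.5%, 11.6%, 10% and 6.5%). Neutrophil-like cluster 33 had Aldoa higher (0.43% of all genes). Clusters 12 and 23 of that class had none called by edgeR (0.178% and 0.536%), with 16 and 8 members at an unadjusted p under 0.05 (11.7% and 12.5%). Pre-B-like clusters 2, 9 and 26 had 4 of 24, 5 of 27 and 1 of 27 members higher (2.48%, 1.53% and 0.37%), and dendritic-like clusters 20 and 22 had 4 of 28 and 2 of 27 (1.17% and 1.41%). Pfkl, Pkm and Pdk1, called over the pre-B-like class, were called in none of its 3 clusters. Of the T-like clusters, 11 had 1 of 28 higher (0.59%) and 28 had none of 25 by edgeR (0.978%), with 3 at an unadjusted p under 0.05 (7.79%).

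**Figure D4:**
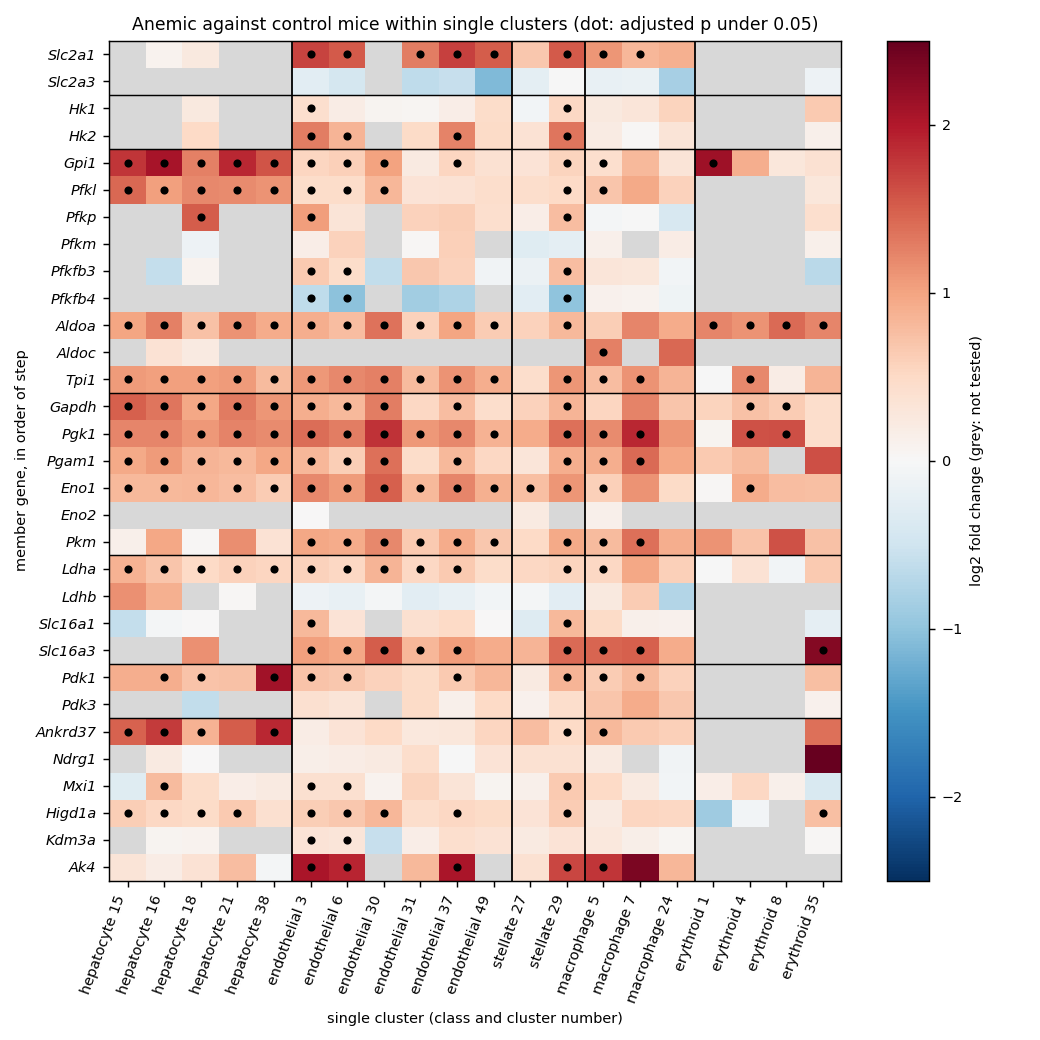
Log2 fold change of the members (rows, by step) within each tested cluster of 5 classes (columns), with a dot where the edgeR adjusted p was under 0.05 and grey where a member was not tested. The rows of Aldoa, Tpi1, Gapdh, Pgk1, Pgam1 and Eno1 are dotted in all 5 hepatocyte-like clusters, and Slc2a1 is dotted in 5 endothelial-like clusters but in no hepatocyte-like one.

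Whether classes responded differently was tested by the class-by-group term with the mouse as a block. Between hepatocyte-like and endothelial-like cells, 21 of 29 members differed, 13 with the larger value in hepatocyte-like and 8 in endothelial-like cells, where 50.3% of all genes differed. Gpi1, Gapdh and Pfkl moved more in hepatocyte-like cells, with differences in log2 fold change for Gpi1 of 1.99 ± 0.11, edgeR adjusted p = 1.09e-09, for Gapdh of 1.50 ± 0.14, edgeR adjusted p = 3.48e-07 and for Pfkl of 1.47 ± 0.12, edgeR adjusted p = 1.63e-07. Ankrd37 also moved more in hepatocyte-like cells (1.85 ± 0.21, edgeR adjusted p = 2.22e-06). Slc2a1 and Hk2 moved more in endothelial-like cells, with differences for Slc2a1 of -1.73 ± 0.20, edgeR adjusted p = 2.05e-06 and for Hk2 of -1.28 ± 0.23, edgeR adjusted p = 0.000146. The lactate carrier Slc16a1 differed in the same direction (-1.13 ± 0.16, edgeR adjusted p = 1.08e-05), having fallen in one class and risen in the other. The test used class sums, and single clusters were not compared this way. Of the 13 members, Gpi1, Pfkl, Ankrd37 and Ldhb had cluster ranges wholly higher in hepatocyte-like cells. For Eno1 the ranges overlapped, with 0.63 to 0.83 in hepatocyte-like and 0.81 to 1.49 in endothelial-like clusters. Those of Tpi1, Pgk1, Aldoa, Pgam1, Ldha, Gapdh and Higd1a overlapped as well. Of the 8 members larger in endothelial-like cells, Slc2a1 and Ak4 had cluster ranges wholly higher there. Hk2 could be tested in 1 hepatocyte-like cluster, and its value of 0.50 lay within the endothelial-like range of 0.48 to 1.28. The ranges of Slc16a1, Hk1, Kdm3a, Pfkfb3 and Ndrg1 overlapped too.

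The other pairs of classes differed in few members. Macrophage-like cells responded more than monocyte-like cells in Slc16a3 (1.13 ± 0.14, edgeR adjusted p = 0.00118) and Pgam1 (0.48 ± 0.10, edgeR adjusted p = 0.0346), 2 of 30 members beside 0.701% of all genes. B-like cells responded less than pre-B-like cells in Aldoa (-0.42 ± 0.068, edgeR adjusted p = 0.000607), Eno1 (-0.28 ± 0.062, edgeR adjusted p = 0.0189) and Ldha (-0.25 ± 0.056, edgeR adjusted p = 0.0185), 3 of 28 beside 0.788%. T-like cells responded less than NK-like cells in Eno1 (-0.45 ± 0.065, edgeR adjusted p = 0.00411) and Pgk1 (-0.38 ± 0.074, edgeR adjusted p = 0.0344), 2 of 28 beside 0.206%. Within single clusters the ranges of Aldoa, Eno1 and Ldha overlapped between B-like and pre-B-like cells. Between T-like and NK-like cells the ranges of Eno1 overlapped and those of Pgk1 did not. The macrophage-like ranges of Slc16a3 and Pgam1 lay above the values of the monocyte-like cluster tested. None of 27 members differed between monocyte-like and neutrophil-like cells (0.133% of all genes) or between erythroid-like and pre-B-like cells (0.27%) by this edgeR test, with 5 members at an unadjusted p under 0.05 in each pair (11.4% and 9.52% of all genes).

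**Figure D5:**
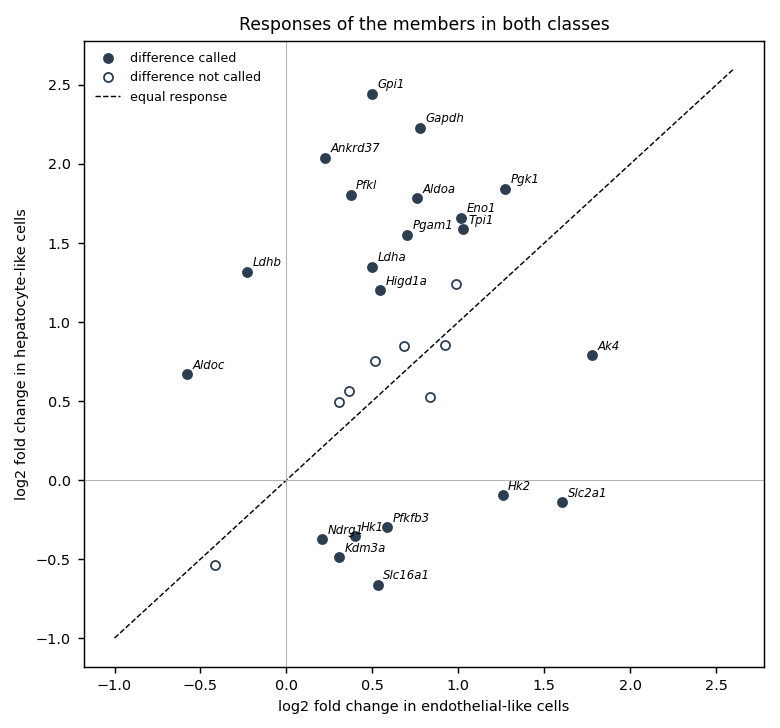
Log2 fold change of 29 members over whole classes, in hepatocyte-like cells (vertical) against endothelial-like cells (horizontal), with the dashed line at equal response and filled points where the difference had an edgeR adjusted p under 0.05. Of these, 13 lie above the line, led by Gpi1 and Ankrd37, and 8 lie below it, led by Slc2a1 and Hk2.

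The wider pathway was read from lists of genes around the members. Of 14 isoenzymes and side enzymes of glycolysis, 12 were tested in hepatocyte-like cells and 4 rose, beside 27.5% of all genes. Galm, which interconverts forms of the hexose ring, rose from 72.5 ± 4.38 to 98.2 ± 12.5 CPM (log2 fold change 0.45 ± 0.093, edgeR adjusted p = 0.000685). Bpgm, which makes the regulator of oxygen release in red cells, rose in hepatocyte-like cells from 14.5 ± 3.93 to 37.5 ± 9.86 CPM (log2 fold change 1.43 ± 0.19, edgeR adjusted p = 9.15e-06). It rose in 5 other classes as well, and it is 1 of the 10 erythroid genes whose summed RNA is given with the RNA of other cells. Of 14 genes for the fate of pyruvate, 8 rose and 1 fell in hepatocyte-like cells, 9 of 14 called beside 53.9% of all genes. Bsg, the partner that brings lactate carriers to the membrane, rose from 1136 ± 111 to 3706 ± 768 CPM (log2 fold change 1.71 ± 0.13, edgeR adjusted p = 6.5e-08). Pdk2, a sister kinase of Pdk1, rose from 16.6 ± 4.42 to 48.2 ± 6.35 CPM (log2 fold change 1.53 ± 0.15, edgeR adjusted p = 5.64e-07). The mitochondrial pyruvate carrier Mpc1 rose from 1305 ± 131 to 2553 ± 267 CPM (log2 fold change 0.97 ± 0.10, edgeR adjusted p = 7.02e-07). Pdk4, the kinase induced by fasting, fell there from 180.2 ± 40.8 to 64.9 ± 16.1 CPM (log2 fold change -1.46 ± 0.17, edgeR adjusted p = 2.34e-06). It rose in endothelial-like cells from 74.8 ± 4.36 to 115 ± 16.3 CPM (log2 fold change 0.62 ± 0.088, edgeR adjusted p = 0.000459).

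Of 25 other hypoxia targets, 18 of 24 tested rose in endothelial-like, 11 of 25 in stellate-like, 10 of 22 in macrophage-like and 10 of 20 in hepatocyte-like cells, where 3 fell. Of all genes, 7.57%, 7.75%, 1.46% and 27.5% rose in these classes, in the same order, and 26.4% fell in hepatocyte-like cells. In endothelial-like cells Angptl4, an inhibitor of lipoprotein lipase, rose from 7.71 ± 1.47 to 42.6 ± 8.01 CPM (log2 fold change 2.47 ± 0.15, edgeR adjusted p = 5.55e-07). Adm, a vessel-widening peptide, rose from 25.2 ± 3.95 to 74.2 ± 18.3 CPM (log2 fold change 1.56 ± 0.15, edgeR adjusted p = 2.01e-05). Vegfa, the growth factor of blood vessels, rose in macrophage-like cells from 5.36 ± 1.3 to 41.7 ± 10.9 CPM (log2 fold change 2.95 ± 0.20, edgeR adjusted p = 4.62e-06). It fell in hepatocyte-like cells from 75.7 ± 6.41 to 49.5 ± 9.9 CPM (log2 fold change -0.58 ± 0.12, edgeR adjusted p = 0.000544). Bnip3, which marks mitochondria for removal, was called in 11 of the 14 classes and rose in hepatocyte-like cells from 152 ± 21.3 to 729 ± 126 CPM (log2 fold change 2.26 ± 0.13, edgeR adjusted p = 2.63e-09). It was also called in classes without a call among the 31 members. Among them, NK-like cells went from 22.2 ± 3.47 to 51.2 ± 13.3 CPM (log2 fold change 1.21 ± 0.17, edgeR adjusted p = 0.0146). Neutrophil-like cells went from 30.4 ± 2.89 to 83.8 ± 43 CPM (log2 fold change 1.48 ± 0.25, edgeR adjusted p = 0.0248). B-like cells went from 22 ± 0.701 to 38.4 ± 12.6 CPM (log2 fold change 0.79 ± 0.17, edgeR adjusted p = 0.0265).

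Of the 6 HIF factors and regulators, 3 fell and 1 rose in hepatocyte-like cells, beside 53.9% of all genes called. Hif1a, which encodes a HIF alpha subunit, fell there from 62.7 ± 8.09 to 45.1 ± 3.04 CPM (log2 fold change -0.48 ± 0.10, edgeR adjusted p = 0.000805). Its partner Arnt fell from 55.2 ± 8.92 to 39.7 ± 5.74 CPM (log2 fold change -0.48 ± 0.12, edgeR adjusted p = 0.0035). Epas1, which encodes another HIF alpha subunit, fell from 81.4 ± 6.4 to 63.1 ± 13.8 CPM (log2 fold change -0.34 ± 0.12, edgeR adjusted p = 0.0286). Egln2, a hydroxylase that marks HIF alpha subunits for breakdown, rose from 36.4 ± 5.9 to 53.5 ± 8.02 CPM (log2 fold change 0.58 ± 0.13, edgeR adjusted p = 0.0011). In endothelial-like cells only Hif1a of the 6 was called, and it rose from 122 ± 13.2 to 163 ± 15.9 CPM (log2 fold change 0.42 ± 0.085, edgeR adjusted p = 0.00423). In stellate-like cells only Epas1 was called, and it fell from 363 ± 35.2 to 242 ± 45.9 CPM (log2 fold change -0.58 ± 0.12, edgeR adjusted p = 0.00339).

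RNA of other cells moved with the groups and is given beside these results. The summed level of 10 erythroid genes, in CPM of all UMIs, was 971 to 3291 in endothelial-like cells of control mice and 4375 to 9618 in those of anemic mice. In hepatocyte-like cells it was 1625 to 7911 in control and 7264 to 31728 in anemic mice. All 10 genes rose in hepatocyte-like and 8 in endothelial-like cells, beside 27.5% and 7.57% of all genes. In stellate-like cells, where all 10 rose too, their sum was 989 to 3469.8 CPM in control and 3418 to 14067 CPM in anemic mice. In macrophage-like cells 4 rose and the sum was 883 to 6278 CPM in control and 3911 to 13974 CPM in anemic mice. In pre-B-like cells 5 rose, with 873 to 3921 CPM in control and 3192 to 6818 CPM in anemic mice. T-like cells also had 5 higher, with 904 to 17499.8 CPM in control and 9068 to 29798 CPM in anemic mice. Monocyte-like cells had 4 higher, with 1382 to 8460 CPM in control and 7647 to 28602 CPM in anemic mice. Neutrophil-like cells had 3 higher, with 1390 to 12165.5 CPM in control and 15454 to 29334 CPM in anemic mice. B-like cells had 3 higher, with 1184 to 6403 CPM in control and 5941 to 10820 CPM in anemic mice, and NK-like cells had 1 higher. None of the 10 genes was at 0 in these classes. Erythroid-like cells themselves held the 31 members at a summed 621 to 1918 CPM in control and 689.9 to 1692 CPM in anemic mice, against 4503 to 5666 and 7027 to 8187 CPM in endothelial-like cells. RNA of 10 hepatocyte genes in endothelial-like cells went the other way, with 2317 to 3927 CPM in control and 519 to 2525 CPM in anemic mice. In macrophage-like cells it was 4552 to 5559 CPM in control and 1096 to 5793 CPM in anemic mice. Of the 10, Apoa1 and Ttr fell in endothelial-like cells, where 10.1% of all genes fell. In erythroid-like cells the sum was 5579 to 8001 CPM in control and 759 to 4228 CPM in anemic mice. In T-like cells, where Apoa1 fell, it was 3699 to 4844 CPM in control and 525 to 3085 CPM in anemic mice. In pre-B-like cells, where 8 of the 10 fell, it was 2702 to 3747 CPM in control and 633 to 2260.3 CPM in anemic mice. In stellate-like cells 1 of the 10 fell, with 1921 to 3639 CPM in control and 732 to 2401 CPM in anemic mice. In dendritic-like cells none was called, with 2274 to 3804 CPM in control and 552 to 2873 CPM in anemic mice. The 9 neutrophil genes in stellate-like cells gave 112 to 296 CPM in control and 262 to 1371 CPM in anemic mice, and 6 of the 8 tested rose, beside 7.75% of all genes. In dendritic-like cells 3 of them rose (Retnlg, S100a8 and Lcn2), beside 0.507% of all genes, with a sum of 41.9 to 118 CPM in control and 69.1 to 291 CPM in anemic mice. In hepatocyte-like cells 2 rose (Lcn2 and Mpo), beside 27.5% of all genes, with 101 to 542 CPM in control and 207 to 2158 CPM in anemic mice. Only Lcn2 of them rose in endothelial-like, macrophage-like, monocyte-like and B-like cells. Their part in the results above was not tested. In cells that carried less hepatocyte and globin RNA, 22 members were called in endothelial-like cells (16.2% of all genes). The same choice of cells gave 15 in macrophage-like (2.56%) and 15 in stellate-like cells (13.2%). Hepatocyte-like cells were picked by globin RNA alone, and 18 members were called in those with less of it (52.1%). Erythroid-like cells were picked by hepatocyte RNA alone. Of 14 cycling genes, 6 rose and 2 fell in hepatocyte-like cells, 8 of 14 called beside 53.9% of all genes.

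The anemic mice differed among themselves. Of the 89 pairs in which a member rose, anemia 2 was the highest of the 6 anemic mice in 60, and anemia 3 the lowest in 25. Without anemia 2, 23 members were called in endothelial-like, 19 in hepatocyte-like, 17 in macrophage-like, 18 in stellate-like and 8 in pre-B-like cells. NK-like cells then gave 3 and neutrophil-like cells 1. Without anemia 4, NK-like cells gave 4 and monocyte-like cells 2, and without anemia 1 or 6 monocyte-like cells gave 2 and 1. The share of all genes called without these mice is not given, so these counts are not set against it. The members rested on the same 12 mice in every class, so the classes are not independent of each other.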

How the data were processed

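Whole-number UMI counts per gene and cell were deposited by the authors for each of 12 mice, made with Cell Ranger 7.0.0 against mm10, with no normalization. Barcodes needed between 500 and 50000 UMIs, of which mitochondrial UMIs could make up 50% at most, which left 206146 of 207537 barcodes. Clusters (scanpy 1.11.5, Leiden at resolution 2, 2000 variable genes without the 31 members, 20 components, 20 neighbours) were named from fixed markers, and 8 of 60 stayed unnamed. Doublets were called but removed only in an alternative. Called doublets made up 1.70% of control and 11.5% of anemic monocyte-like cells, and 5.38% and 13.6% of neutrophil-like cells. In erythroid-like cells the shares were 5.87% and 11.5%, and in T-like cells 5.36% and 8.61%. The share was lower in anemic mice in pre-B-like (8.04% and 4.76%), B-like and cholangiocyte-like cells, and higher in the other classes. UMIs were summed per mouse and class, a mouse with under 20 cells of a class was left out of it, and mitochondrial and ribosomal protein genes and genes under a mean of 5 UMIs were dropped. Groups were compared with edgeR 4.0.16 in R 4.3.3 (TMM, quasi-likelihood), with Benjamini-Hochberg adjustment over all tested genes of the class. The same code, tested on simulated counts, recovered 93 of 100 genes changed by 2 on the log2 scale, and 71 of 100 changed by 1, in endothelial-like cells over 16995 genes. For changes of 1 it recovered 76 of 100 in hepatocyte-like (12140 genes), 73 in stellate-like (15336), 67 in macrophage-like (14631), 52 in monocyte-like (11107), 51 in erythroid-like (10345) and 46 in neutrophil-like cells (10362). False calls ranged from 2 in macrophage-like to 14 in B-like and dendritic-like cells. The simulation changed few genes, as many up as down, so it does not cover a class with many called genes, such as the hepatocyte-like class.

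Every member called somewhere is given with its values in each class called, and with its lowest, median and highest mouse in the class of smallest adjusted p. Members, gene lists and tests were chosen with earlier results of these data known. Alternatives were DESeq2 1.42.0, a joint voom model (limma 3.58.1), other filters, scaling and clusterings, a replicate block, an Xist covariate, removal of doublets and leaving out each mouse. Reads shared between glycolytic genes and their near-identical pseudogenes could not be checked in counts. Replicate numbers were not taken as pairs, since no label ties the mice. The deviations of the mice numbered 4, and of those numbered 1, correlated over 0.1 in most classes. Whether same-numbered mice shared a litter was not tested. Promoter windows came from RefSeq. Intervals and tests cover the spread between these mice. Some genes of the lists are not reported here.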

Additional observations from a re-analysis of the deposited data

Results flagged for a closer look

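In 23 of 184 groups of 6 mice behind the called results, 1 mouse stood apart from the others by Dixon's test at its 95% critical value. Chance gives about 1 in 20 such groups, and the members share mice and cells. Anemia 2 was that mouse 17 times and control 3 was it 6 times. In macrophage-like cells, anemia 2 had 118 CPM of Pfkl (others 73.6 to 84.4), 586 CPM of Tpi1 (others 284 to 393), 744 CPM of Pgam1 (others 313 to 437), 1377 CPM of Ldha (others 793 to 885), 128 CPM of Slc16a3 (others 57.2 to 66.7) and 12.1 CPM of Ak4 (others 3.83 to 5.76). In hepatocyte-like cells, anemia 2 had 524 CPM of Aldoa (others 266 to 352), 795 CPM of Tpi1 (others 538 to 632), 10061 CPM of Gapdh (others 6725 to 7861) and 1107 CPM of Pgk1 (others 726 to 847). In stellate-like cells, anemia 2 had 878 CPM of Aldoa (others 473 to 568), 2254 CPM of Gapdh (others 1116 to 1343), 424 CPM of Pgk1 (others 249 to 298), 394 CPM of Eno1 (others 275 to 311) and 795 CPM of Pkm (others 473 to 558). In dendritic-like cells, anemia 2 had 200.0 CPM of Tpi1 (others 95.2 to 127). In T-like cells, anemia 2 had 60.2 CPM of Slc16a3 (others 20.7 to 32.2). In stellate-like cells, control 3 had 1089.9 CPM of Gapdh (others 761 to 878), 208 CPM of Eno1 (others 157 to 174), 429.6 CPM of Pkm (others 363 to 376) and 493 CPM of Ldha (others 395 to 420.4). In endothelial-like cells, control 3 had 366 CPM of Eno1 (others 250.4 to 285). In pre-B-like cells, control 3 had 346 CPM of Eno1 (others 236 to 275).

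Responses differed between classes in 28 tests of a member, and the difference in log2 fold change is given with its edgeR adjusted p. These tests used class sums, and for several members the ranges within single clusters overlapped, as given above. Of the 28, 21 came from hepatocyte-like against endothelial-like cells, where 29 members were tested and 50.3% of all genes differed. The share of all genes was 0.701% for macrophage-like against monocyte-like, 0.788% for B-like against pre-B-like and 0.206% for T-like against NK-like cells. The value in hepatocyte-like cells was above that in endothelial-like cells for Gpi1 (1.99, edgeR adjusted p = 1.09e-09), Ankrd37 (1.85, edgeR adjusted p = 2.22e-06), Ldhb (1.63, edgeR adjusted p = 1.04e-05), Gapdh (1.50, edgeR adjusted p = 3.48e-07) and Pfkl (1.47, edgeR adjusted p = 1.63e-07). The value in hepatocyte-like cells was above that in endothelial-like cells for Aldoc (1.30, edgeR adjusted p = 0.00184), Aldoa (1.05, edgeR adjusted p = 1.96e-06), Pgam1 (0.90, edgeR adjusted p = 6.28e-06), Ldha (0.89, edgeR adjusted p = 2.34e-05) and Higd1a (0.72, edgeR adjusted p = 0.000358). The value in hepatocyte-like cells was above that in endothelial-like cells for Eno1 (0.68, edgeR adjusted p = 0.000111), Pgk1 (0.62, edgeR adjusted p = 0.000116) and Tpi1 (0.61, edgeR adjusted p = 0.000146). The value in hepatocyte-like cells was below that in endothelial-like cells for Slc2a1 (-1.73, edgeR adjusted p = 2.05e-06), Hk2 (-1.28, edgeR adjusted p = 0.000146), Slc16a1 (-1.13, edgeR adjusted p = 1.08e-05), Ak4 (-0.93, edgeR adjusted p = 0.000982) and Pfkfb3 (-0.81, edgeR adjusted p = 0.000113). The value in hepatocyte-like cells was below that in endothelial-like cells for Kdm3a (-0.77, edgeR adjusted p = 0.000152), Hk1 (-0.71, edgeR adjusted p = 0.0118) and Ndrg1 (-0.58, edgeR adjusted p = 0.0228). The value in macrophage-like cells was above that in monocyte-like cells for Slc16a3 (1.13, edgeR adjusted p = 0.00118) and Pgam1 (0.48, edgeR adjusted p = 0.0346). The value in B-like cells was below that in pre-B-like cells for Aldoa (-0.42, edgeR adjusted p = 0.000607), Eno1 (-0.28, edgeR adjusted p = 0.0189) and Ldha (-0.25, edgeR adjusted p = 0.0185). The value in T-like cells was below that in NK-like cells for Eno1 (-0.45, edgeR adjusted p = 0.00411) and Pgk1 (-0.38, edgeR adjusted p = 0.0344).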

How the results depend on the processing

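Of 2193 repeats of the 92 calls under another setting or without 1 mouse, 1957 kept direction and threshold, 236 kept the direction only and none reversed. Of the calls, 55 held in every repeat that gave a value. Without 1 mouse, the members called ranged from 20 to 25 in endothelial-like, 19 to 23 in hepatocyte-like, 15 to 18 in stellate-like, 11 to 18 in macrophage-like, 4 to 8 in pre-B-like, 0 to 6 in dendritic-like, 0 to 4 in NK-like, 0 to 3 in erythroid-like, 0 to 2 in monocyte-like and 0 to 1 in T-like and neutrophil-like cells, and were 0 throughout in the other classes. The cause of the following shifts was not tested. For the ranges above, and for the counts below and with the block, the share of all genes called is mostly not given. Such counts do not show whether the members moved more than all genes did. Without the filter on low counts, calls were 8 in erythroid-like, 7 in dendritic-like, 6 in T-like, 5 in monocyte-like, 3 in neutrophil-like, 1 in NK-like and 1 in B-like cells. With a mean of at least 50 UMIs they were 1 in dendritic-like and 0 in T-like cells. DESeq2 gave 6 in erythroid-like, 5 in NK-like, 5 in dendritic-like, 4 in neutrophil-like, 4 in monocyte-like and 1 in B-like cells. The joint voom model gave 6 in monocyte-like, 2 in neutrophil-like, 5 in erythroid-like, 10 in NK-like, 0 in T-like and 2 in B-like cells. Without called doublets the counts were 4 in stellate-like, 1 in erythroid-like, 0 in T-like, 5 in pre-B-like and 2 in NK-like cells. At resolution 1 they were 0 in dendritic-like, 4 in erythroid-like, 3 in B-like and 0 in T-like cells. With members allowed among the clustering genes they were 3 in neutrophil-like and 5 in erythroid-like cells. In cells with less hepatocyte and globin RNA there was 1 in dendritic-like cells. Erythroid-like cells with less hepatocyte RNA gave 1. With Xist as a covariate pre-B-like cells gave 5. Without TMM factors erythroid-like cells gave 0, the macrophage-like against monocyte-like comparison gave 4, and calls summed over single clusters were 4 in neutrophil-like and 4 in erythroid-like cells.

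With the replicate number as a block, calls were 8 in monocyte-like, 6 in dendritic-like, 2 in T-like, 2 in neutrophil-like and 1 in erythroid-like cells, and in the other classes the count moved by less than 1.5 times. In no class were the correlations of deviations over 0.1 for all 6 same-numbered pairs, but 1 to 4 pairs were per class, and pair 4 was in all 14 classes (0.117 to 0.540). Pair 1 was over 0.1 in 11 of the 14 classes, pair 2 in 7, pair 5 in 5, pair 3 in 1 and pair 6 in 0. Per class, 1 to 3 pairs correlated best with their own number. Basophil or mast cell-like cells at resolution 1 and in the lower-RNA cells, and cholangiocyte-like cells without doublets, gave no value. Low counts limited Eno2, Aldoc, Ak4, Pfkfb4, Pfkm and Ldhb, which were tested in 4, 7, 9, 10, 11 and 11 of the 14 classes.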
